A study of Mus musculus with 4 samples.

Results

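The subject is the collagen chains of mouse lung, taken as every gene whose symbol is Col, a type number, the letter a and a chain number, and which has a probe set on the array that names it alone. By that rule 42 of 18193 named genes were collagens, and Col28a1 and Col6a6, the remaining 2 of the 44 collagen genes in RefSeq, are not analysed here. Where several probe sets named a gene, the one brightest on average over the arrays was used. The collagens were divided by the structure they build, into 11 fibrillar genes, 8 basement membrane genes (type IV, Col15a1 and Col18a1) and 23 others. Lung RNA of B6/J mice was measured on 4 Affymetrix arrays, 2 of them labelled wild type and 2 labelled IKKa floxed. IKKα is a kinase that activates NF-κB transcription factors, and a floxed allele is one that Cre recombinase can excise. Both groups received adenovirus with Cre through the trachea and were killed 4 months later, so the wild type lungs are controls for the virus as well. Cre came from the virus and not from a transgene with a cell-type promoter, the labels do not say which cells took it up, and the targeted gene is not analysed here. Age and sex are not given, and nothing in the labels says that the arrays stand for separate animals, so the spread behind the p-values is that between arrays and may be technical.

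Collagens are the main structural proteins of the extracellular matrix. Their chains, rich in repeats of glycine and proline, wind around each other into rope-like helices. Fibrillar collagens such as types I and III assemble into the tensile fibres of airway walls, vessels and alveolar septa, type IV forms the sheet-like network under epithelium and endothelium, and type VI forms beaded filaments between cells and fibres. Fibroblasts make most of the fibrillar chains, while endothelial and alveolar epithelial cells contribute type IV. In scarring lung disease the fibrillar genes are among those whose transcripts increase.

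The arrays differed in more than the genotype. Median intensity was 32.1 to 34.3. Xist, expressed in female cells, had intensities of 31.8 and 22.9 in wild type against 4246 and 4629 in floxed lungs, so genotype cannot be told apart from sex. The Gapdh 3′ to 5′ ratio, a measure of RNA integrity, was 1.18 and 1.10 against 1.44 and 1.68. The same ratio for actin was closer between the groups, at 2.65 and 2.46 against 2.67 and 2.77. Summed intensity of 8 cardiac muscle markers was 4761 to 7003 in wild type and 477 to 618 in floxed lungs, that of 5 adipocyte markers 757 to 1024 against 94.0 to 115, and that of 6 smooth muscle markers 3892 to 4417 against 2349 to 2703. By limma's adjusted p, 7 of 8, 3 of 4 and 2 of 6 tested markers of these lists were called lower in the floxed lungs, where 0.738% of all genes tested were. The tissue label was borne out by high sums of alveolar markers, while 4 airway basal markers summed to at most 45.5. Type 1 alveolar markers summed to 25056 to 25136 in wild type and 27157 to 28545 in floxed lungs. Type 2 alveolar markers summed to 23327 to 23893 in wild type and 26488.5 to 29002 in floxed lungs. Both sums were higher in the floxed lungs without overlap, and 0 of 6 and 0 of 4 tested markers were called, against 1.74% of all genes. The type 1 markers did not all follow their sum, as 4 were higher in the floxed lungs and 2 lower. Pdpn, 1 of the lower ones, had 1642 and 1859 in wild type against 1075 and 1072 in floxed lungs (limma adjusted p = 0.0518). In whole lung, fewer cells of a type and less RNA per cell cannot be told apart. The part of these differences in the collagen values was not tested.

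No collagen gene passed the test for a difference between the lungs. Of the 42 collagens, 27 passed the filter on low values, and 0 of these were called at a limma adjusted p under 0.05, where 1.74% of all 12735 genes tested were called. At an unadjusted p under 0.05 there was 1 collagen, Col13a1, against 14.3% of all genes. The groups did not overlap for 10 of the 27, or 37%, against 45.7% of all genes. The difference between group means exceeded the larger difference between replicates for 6 of the 27, or 22.2%, against 33.2% of all genes. The median log2 fold change (floxed over wild type, on log2(intensity + 16)) was -0.03 over the 27 collagens, with 13 above 0 and 14 below, and 6.1e-05 over all genes.

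A missed threshold does not show that the collagens were alike in the groups, so the intervals give the sizes of change that remain. Fold changes here are on intensities with a constant, the pseudocount, added. On that scale the 95% interval of the log2 fold change lay within 2-fold in either direction for all 27 collagens tested. The same held for 95.4% of all genes tested. The interval lay within 1.5-fold for 22 of the 27, or 81.5%, and for 71.2% of all genes. The lowest limit was -0.69, for Col17a1, and the highest was 0.63, for Col13a1. These intervals rest on 2 arrays a group and on limma's pooled prior for the spread. They also depend on the pseudocount, which shrinks the fold changes of dim genes. With a pseudocount of 1 the log2 fold change of Col17a1 went from -0.23 to -0.40, and that of Col5a3 from -0.13 to -0.23. That of the bright Col1a2 stayed at 0.03. Intervals at that pseudocount are not given here, so no limit on the fold change of unadjusted intensities is drawn for dim collagens.

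**Figure D1:**
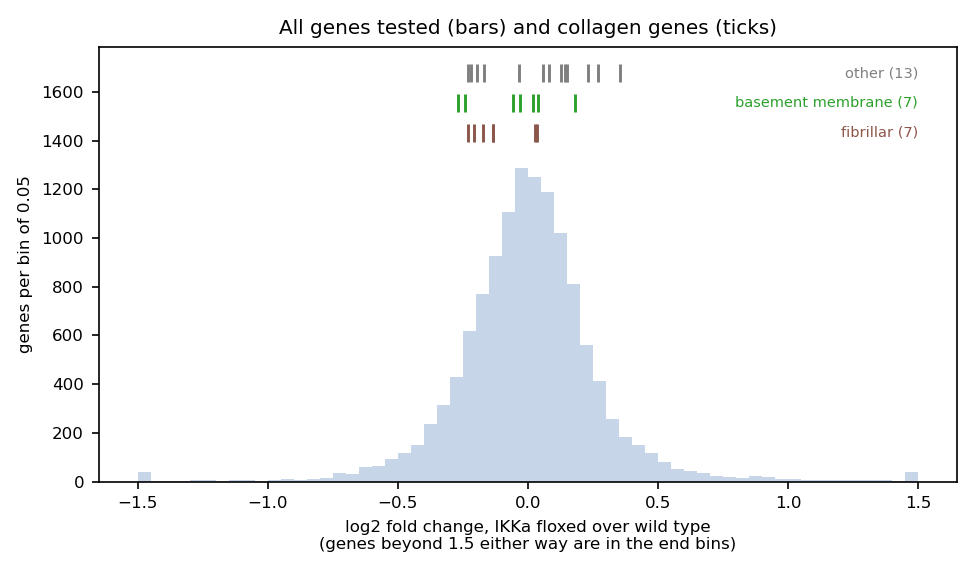
Histogram of the log2 fold change of all 12735 genes tested (bars, in bins of 0.05) with the collagen genes of each class as ticks above it. The 27 collagens lie between -0.27 and 0.35, in the body of the distribution.

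**Figure D2:**
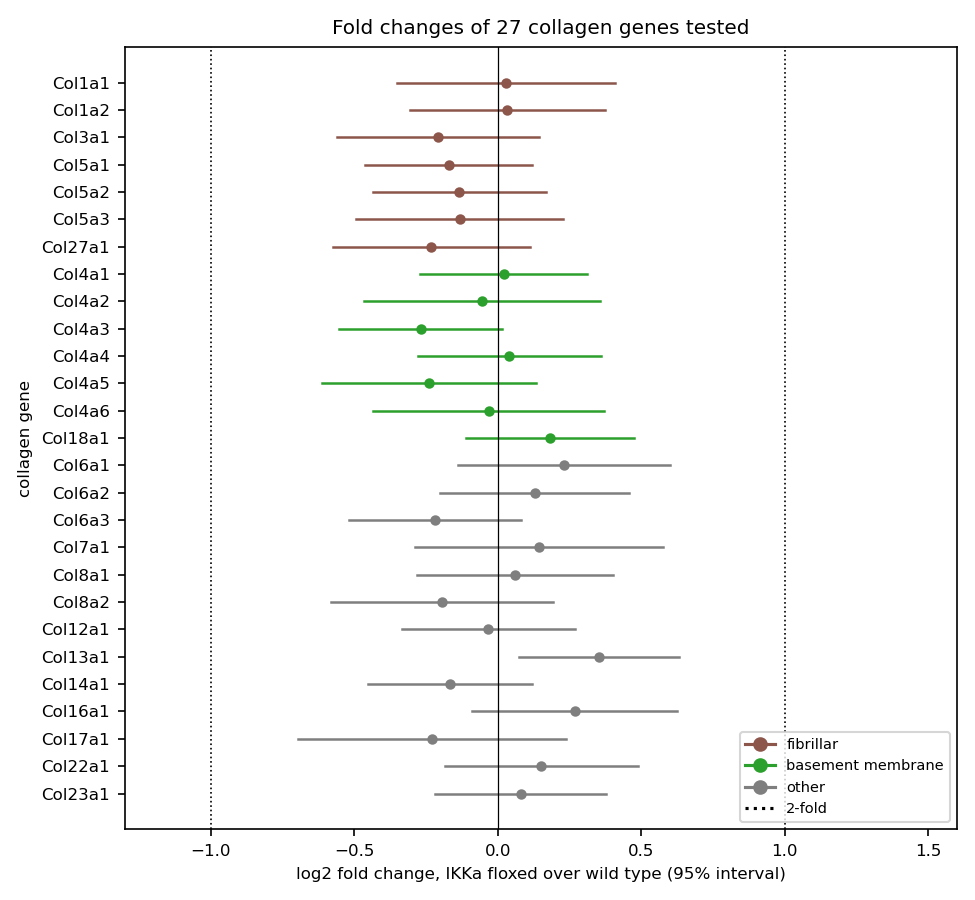
Log2 fold change (points, floxed over wild type) with its 95% limma interval (lines) for the 27 collagen genes tested, coloured by class, with dotted lines at a 2-fold change. With the pseudocount added to intensities, no interval reaches a dotted line, and Col13a1 is the 1 gene whose interval leaves out 0.

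No fibrillar collagen passed the test. Of 7 tested, 5 log2 fold changes lay below 0 and 2 above, with a median of -0.13 and a range of -0.23 to 0.03. The upstream sequences of Col1a2 and Col3a1 are shown because these are the fibrillar genes whose probe sets gave the strongest signals. Each is the 250 bases before the RefSeq start (GRCm38.p6, + strand, chr6:4505368-4505617 and chr1:45311288-45311537). Capitals mark the CCAAT box with the letters CCAAT, the TATA box with the letters TATAAA and the GC box with the letters GGGCGG. Both strands were searched, and none of the marked matches overlap.
Col1a2: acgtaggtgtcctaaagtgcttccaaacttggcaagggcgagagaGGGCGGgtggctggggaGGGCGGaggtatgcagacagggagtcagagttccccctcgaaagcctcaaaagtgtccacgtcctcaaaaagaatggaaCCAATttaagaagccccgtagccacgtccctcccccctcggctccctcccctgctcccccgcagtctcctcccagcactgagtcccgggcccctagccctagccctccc
Col3a1: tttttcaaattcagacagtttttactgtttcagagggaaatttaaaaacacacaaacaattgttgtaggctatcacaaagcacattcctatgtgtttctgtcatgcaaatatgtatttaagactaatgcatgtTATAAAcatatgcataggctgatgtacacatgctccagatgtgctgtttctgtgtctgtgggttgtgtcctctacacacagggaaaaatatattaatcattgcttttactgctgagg
The Col1a2 window held 1 CCAAT box and 2 GC boxes, and the Col3a1 window held 1 TATA box. RefSeq windows were found for 33 of the 42 collagen genes, 36 windows in all. Of these, 36.1% held a CCAAT box, 13.9% a TATA box and 58.3% a GC box, against 33.8%, 12.4% and 32.7% of 32817 windows of all genes, which include non-coding ones. A match of letters is a description and not a site in use.

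Col1a2, which encodes the second chain of type I collagen, had intensities of 1945 and 2309 in wild type against 2313 and 2037 in floxed lungs. The groups overlapped almost fully, and the log2 fold change was 0.03 ± 0.14 SE (limma adjusted p = 0.945). Col3a1, the single chain of type III collagen, which accompanies type I in compliant tissues, stood at 1712 and 2125 in wild type against 1572 and 1733 in floxed lungs. The upper floxed value lay between the wild type values, and the log2 fold change was -0.21 ± 0.15 SE (adjusted p = 0.594, 95% interval -0.56 to 0.15). Its second probe set, at 166 and 162 against 124 and 143, gave -0.27 with no overlap.

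Col5a2, a chain of the type V collagen that nucleates fibrils, had 409 and 457 in wild type against 378 and 408 in floxed lungs. Both floxed values lay below both wild type values, the closest by less than 1 unit of intensity, and the log2 fold change was -0.13 ± 0.13 SE (adjusted p = 0.697). The weaker of its probe sets stood at 113 and 115 against 76.5 and 86.5, a log2 difference of -0.42 with no overlap. Its partner chain Col5a1 gave 151 and 169 against 141 and 139, again without overlap (-0.17 ± 0.12 SE, adjusted p = 0.592). A second Col5a1 probe set overlapped, at 59.5 and 85.3 against 63.8 and 80.4, a log2 difference of 0.0043. Col27a1, a fibrillar chain of cartilage and developing tissues, read 131 and 159 against 129.7 and 112 on its brighter probe set (-0.23 ± 0.14 SE, adjusted p = 0.534). Its other probe set overlapped, at 64.5 and 70.4 against 66.3 and 71.4, and the mean of both gave -0.10. Col1a1, the first chain of type I collagen, was read by a dim probe set, at 59.5 and 54.3 against 48.9 and 69.1, with the floxed values on either side of the wild type ones (0.03 ± 0.16 SE, adjusted p = 0.960). Col5a3 stood at -0.13 ± 0.15 SE (adjusted p = 0.755).

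**Figure D3:**
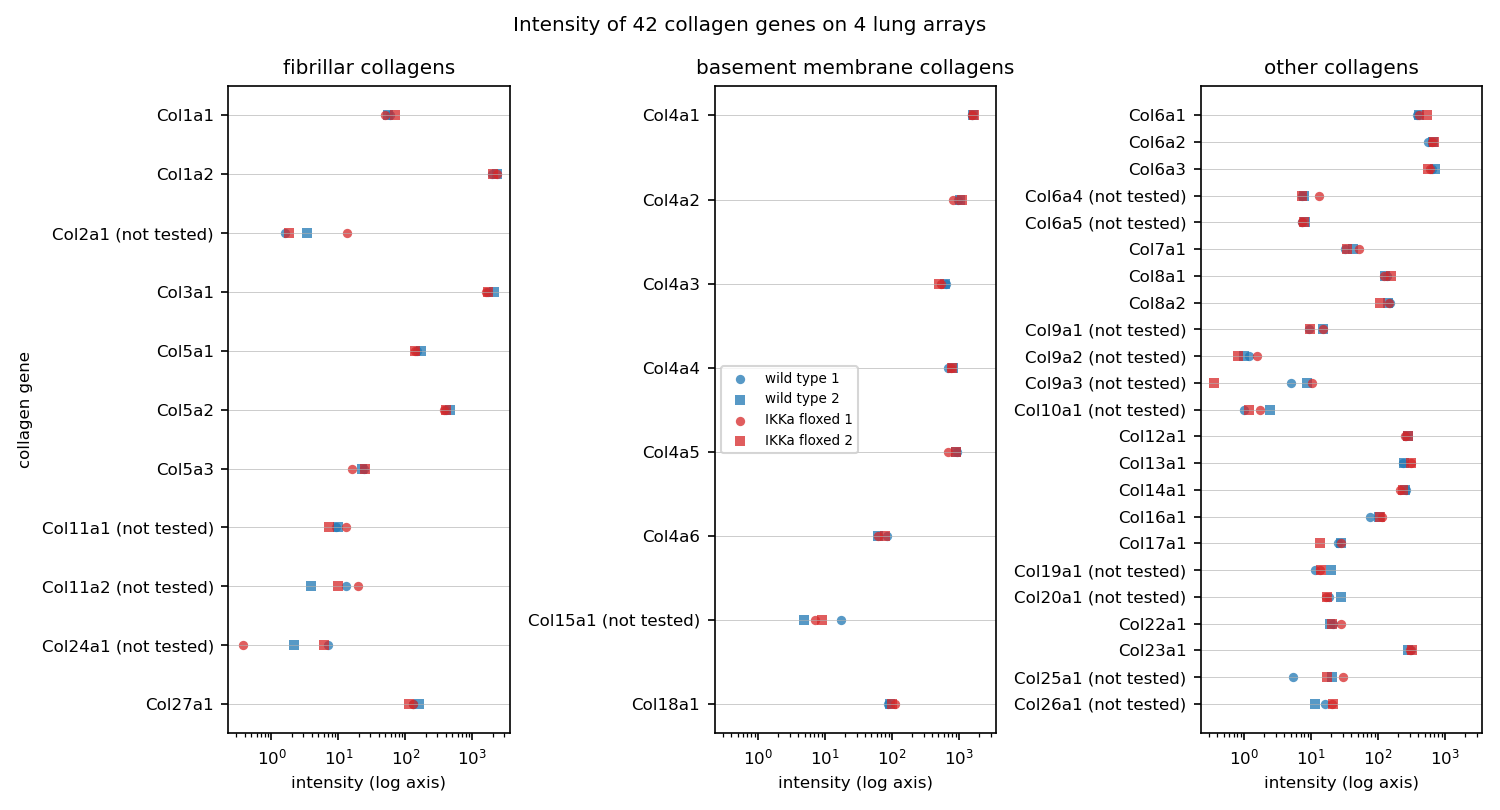
Intensity (log axis) of the 42 collagen genes on each array, in panels for fibrillar, basement membrane and other collagens, with blue for wild type, red for IKKa floxed, circles for replicate 1 and squares for replicate 2. The arrays lie close together for the genes tested, and the genes marked as not tested scatter below an intensity of about 30.

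The basement membrane collagens showed a median of -0.03 over 7 genes tested, 3 above 0 and 4 below, with a range of -0.27 to 0.18. Col4a1, 1 of the chains of the ubiquitous type IV network, had 1596 and 1631 in wild type against 1559.7 and 1719 in floxed lungs. The floxed values lay on either side of the wild type ones, with a log2 fold change of 0.02 ± 0.12 SE (adjusted p = 0.962, 95% interval -0.27 to 0.31). Col4a2, its partner in the same helix, had 963 and 1062 against 829 and 1139, the same arrangement (-0.06 ± 0.17 SE, adjusted p = 0.922).

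Col4a3, Col4a4 and Col4a5 encode the chains of the specialised network in alveolar and kidney basement membranes. Col4a3 stood at 656 and 632 in wild type against 550.3 and 515 in floxed lungs. Its groups did not overlap, yet the log2 fold change of -0.27 ± 0.12 SE did not pass (adjusted p = 0.377, 95% interval -0.55 to 0.02). Its second probe set gave 273 and 339 against 216 and 195, a log2 difference of -0.53, also without overlap. Averaged over both probe sets Col4a3 stood at -0.40 (adjusted p = 0.186), the lowest adjusted p of any collagen in that fit.

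Col4a4 overlapped between the groups, at 692 and 821 against 759 and 792 (0.04 ± 0.13 SE, adjusted p = 0.929). Col4a5, on the X chromosome, gave 943 and 918 against 684 and 901. Its groups did not overlap, but floxed replicate 2 came close to wild type and floxed replicate 1 lay well below (-0.24 ± 0.16 SE, adjusted p = 0.556). Without floxed replicate 1 its log2 fold change was -0.05, without floxed replicate 2 it was -0.43 (adjusted p = 0.194), and its other probe set showed a log2 difference of 0.00090. Col18a1, whose C-terminal fragment is endostatin, was the highest of this class, at 88.1 and 94.3 against 111 and 100.4 (0.18 ± 0.12 SE, adjusted p = 0.564), while its second probe set overlapped, at 0.06. Markers of capillary endothelium, a main source of type IV collagen, summed to 8089 and 8718 in wild type against 8699 and 9319 in floxed lungs. Of these markers 0 of 7 were called, against 1.74% of all genes.

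Collagen genes that lie next to each other in the genome were compared array by array. Col4a1 and Col4a2, head to head on chromosome 8 with RefSeq starts 21 bases apart, ran on their brightest probe sets from low to high in 1 order: floxed replicate 1, wild type replicate 1, wild type replicate 2, floxed replicate 2. These were the only collagens of the 27 with this order, and 3.72% of all genes tested had it. The order was taken from this pair and then counted, so the count is a description. A second Col4a1 probe set did not keep it: at 196 and 255 in wild type against 164 and 239 in floxed lungs, it was highest on wild type replicate 2 (log2 difference -0.16). The mesothelium markers, picked out after their values were seen, had the same order in sum, at 482 and 934 in wild type against 389 and 1109.5 in floxed lungs. Wt1 on that list did not have it. The order was not particular to that list, as Nid1, Lama5, Ddr1 and the endothelial marker Cdh5 also had it on the probe sets used. The part of the mesothelium in the type IV values was not tested.

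Col4a3 and Col4a4, neighbours on chromosome 1, differed in pattern: Col4a3 was highest on wild type replicate 1, where Col4a4 was lowest. Col4a5 and Col4a6, with starts 1343 bases apart on the X chromosome, were both highest on wild type replicate 1. Col4a6 had 84.1 and 62.5 against 62.6 and 79.8 (-0.03 ± 0.17 SE, adjusted p = 0.960). Col3a1 and Col5a2, also neighbours on chromosome 1, were both highest on wild type replicate 2 and lowest on floxed replicate 1. Col6a1 and Col6a2 on chromosome 10 also shared a full order. From low to high it was wild type replicate 1, floxed replicate 1, wild type replicate 2, floxed replicate 2. Col6a4 and Col6a5 on chromosome 9 were below the filter. All these orders are those of each gene's brightest probe set. Second probe sets of Col4a5, Col4a3 and Col3a1 were highest on floxed replicate 2, wild type replicate 2 and wild type replicate 1. A second Col6a2 probe set was lowest on wild type replicate 2. Second probe sets of Col4a6 and Col5a2 were highest on the same array as the brightest. With 4 arrays these are descriptions of order.

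**Figure D4:**
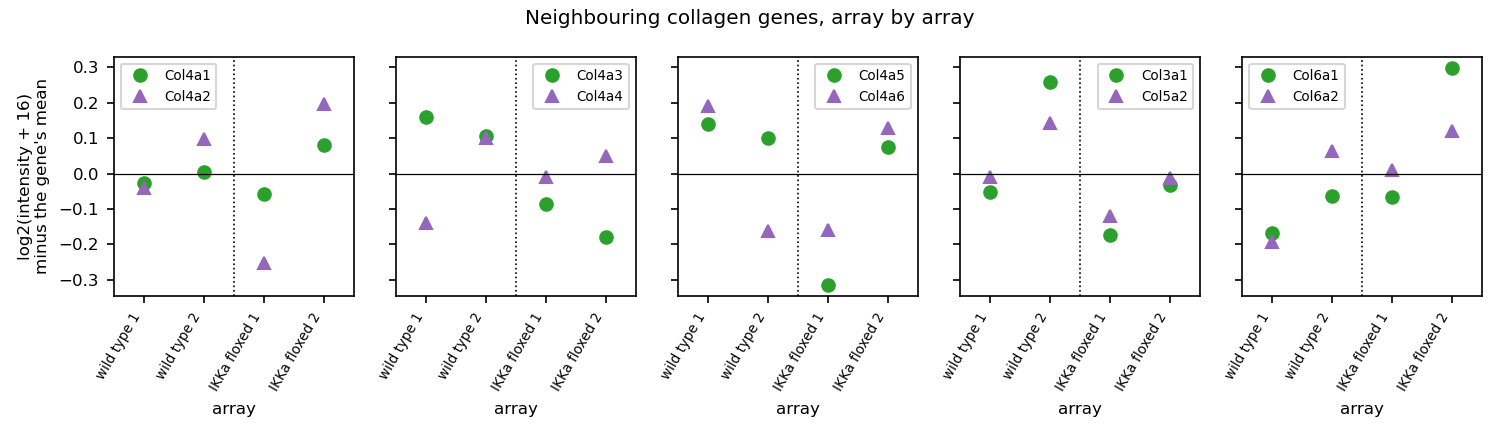
Values of 5 pairs of neighbouring collagen genes on the 4 arrays, as log2(intensity + 16) minus the gene's own mean, with a dotted line between wild type and IKKa floxed arrays. Each gene is shown by its brightest probe set. Col4a1 and Col4a2 are both lowest on floxed replicate 1 and highest on floxed replicate 2, while Col4a3 and Col4a4 part on wild type replicate 1.

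The other collagens moved both ways, with a median of 0.08 over 13 genes tested, 8 above 0 and 5 below. Col13a1, a transmembrane collagen of cell-matrix junctions, came closest to the threshold of all 27. It had 237 and 246 in wild type against 313 and 313 in floxed lungs. The floxed values were nearly equal and lay above both wild type values, a 1.28-fold difference (log2 fold change 0.35 ± 0.12 SE, adjusted p = 0.238, 95% interval 1.05-fold to 1.55-fold). Its log2 fold change ran from 0.33 to 0.38 with each array left out in turn (adjusted p = 0.272 to 0.685).

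Of the type VI chains, Col6a1 and Col6a2 lay above 0 and Col6a3 below. Col6a1 had 387 and 417 in wild type against 416 and 541 in floxed lungs (0.23 ± 0.15 SE, adjusted p = 0.564). Only floxed replicate 2 stood apart, and without it the log2 fold change was 0.05. Col6a2 had 560.3 and 674 against 648 and 699.9, with overlap (0.13 ± 0.14 SE, adjusted p = 0.737). Col6a3, the longest of these chains, had 644 and 714 against 606 and 557, without overlap (-0.22 ± 0.13 SE, adjusted p = 0.504).

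Among the FACIT collagens, which decorate the surface of fibrils, Col16a1 gave 77.5 and 102 against 115 and 107 (0.27 ± 0.15 SE, adjusted p = 0.489). Col14a1 gave 259 and 253 against 217 and 236 (-0.17 ± 0.12 SE, adjusted p = 0.594). Neither overlapped between the groups, but a second Col14a1 probe set did, at -0.014. Col12a1 and Col22a1 overlapped, at -0.03 and 0.15 on the log2 scale. The short-chain collagens of vascular and endothelial matrices, Col8a1 and Col8a2, stood at 0.06 and -0.19 (adjusted p = 0.897 and 0.651). Col7a1, of the anchoring fibrils, stood at 0.14, and the transmembrane collagens Col17a1, of hemidesmosomes, and Col23a1 at -0.23 and 0.08. Adjusted p-values of these last 3 were 0.775, 0.660 and 0.832.

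The 15 collagens that did not pass the filter, whose limit was an intensity of 20.4, had single values from 0.353 to 30.05 and were not tested. They were the cartilage chains Col2a1, Col9a1, Col9a2, Col9a3, Col10a1, Col11a1 and Col11a2, together with Col24a1, Col15a1, Col6a4, Col6a5, Col19a1, Col20a1, Col25a1 and Col26a1. Of cartilage markers outside the family, 9 of 11 were also below the filter. Just outside the limit, Col20a1 stood at 18.8 and 28.5 in wild type against 16.6 and 17.3 in floxed lungs. Just inside it, Col5a3 stood at 24.2 and 22.5 against 15.8 and 24.6. At such intensities the arrays do not show whether a transcript is present, because no detection call was used.

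Collagen chains need a series of enzymes and partners before they work, and most of these genes also did not pass the test. Of 47 tested assembly genes 2 were called, both higher in the floxed lungs, where 1.01% of all genes were called higher, and their median log2 fold change was 0.03. Plod1, a lysyl hydroxylase that modifies collagen lysines for crosslinking, rose 2.24-fold. Its values were 73.1 and 88.4 in wild type against 194 and 207 in floxed lungs (log2 fold change 1.17 ± 0.13 SE, limma adjusted p = 0.00991). Both floxed arrays lay above both wild type arrays, and it passed whichever array was left out, but not when low genes were kept in the test (adjusted p = 0.0579). The dimmer of its 2 probe sets gave 23.8 and 26.6 against 32.7 and 34.9, a log2 difference of 0.27. The related Plod2 and Plod3 stood at 0.03 and 0.17 and did not pass.

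The remaining folding and modification genes did not pass either, Plod1 being the 1 of 18 called, against 1.74% of all genes. P4hb, a subunit of prolyl hydroxylase, had 3180.4 and 3158 against 3191 and 3324 (0.04 ± 0.12 SE). Ppib, a prolyl isomerase, stood at 0.12 ± 0.13 SE. Serpinh1, the collagen-specific chaperone HSP47, had 1227 and 1306 in wild type against 1216 and 940.1 in floxed lungs (-0.24 ± 0.15 SE, adjusted p = 0.549).

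Of 6 propeptide cleavage genes and 3 crosslinking genes, 0 were called, and at an unadjusted p under 0.05 there were also 0. Over all genes these shares were 1.74% and 14.3%. The procollagen C-proteinase enhancers Pcolce2 and Pcolce stood at -0.03 ± 0.18 SE and 0.03 ± 0.12 SE. The crosslinking oxidases Loxl1 and Lox stood at -0.22 ± 0.12 SE and -0.08 ± 0.12 SE (adjusted p = 0.476 and 0.826). Among 13 basement membrane partners 0 were called by limma, with 1 at an unadjusted p under 0.05, Nid2, a linker of the laminin and type IV networks, at -0.36. Sparc, a collagen-binding matrix protein, had 4049.8 and 4309.6 against 4987 and 4845 without overlap (0.23 ± 0.12 SE, adjusted p = 0.446), and Nid1 stood at 0.03 ± 0.12 SE.

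Of 7 collagen receptor genes 1 was called by limma, against 1.74% of all genes. At an unadjusted p under 0.05 there were 2, Lair1 and Mrc2, against 14.3% of all genes. Mrc2 had 145 and 118 in wild type against 216 and 168 in floxed lungs, without overlap (0.50 ± 0.16 SE, adjusted p = 0.239). Lair1, an inhibitory collagen receptor of leukocytes, rose 1.64-fold, from 46.2 and 44.7 to 79.7 and 89.9 (0.71 ± 0.12 SE, adjusted p = 0.0462). Leaving out any single array ended this call (adjusted p = 0.0595 to 0.192), as did a pseudocount of 1 (0.0705), keeping low genes in the test (0.153), the mean of all probe sets (0.0658) and the replicate block (0.0848). Other probe sets of Lair1 were also higher in the floxed lungs without overlap. They gave 42.9 and 43.6 in wild type against 86.6 and 71.1 (log2 difference 0.67), and 25.8 and 20.2 against 47.0 and 29.6 (0.46). Itgb1, the shared chain of collagen-binding integrins, stood at 0.10 ± 0.13 SE. Ddr1, a receptor tyrosine kinase for collagen, read 1449.8 and 1462 in wild type against 671 and 1506 in floxed lungs. It stood at -0.53 ± 0.33 SE (adjusted p = 0.543), with floxed replicate 1 alone low on this probe set. Its next brightest gave 183 and 164 against 110 and 137, with both floxed arrays below both wild type arrays (log2 difference -0.44). On the probe set used, without floxed replicate 2 it was at -1.10 (adjusted p = 0.0166), and without floxed replicate 1 at 0.05.

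**Figure D5:**
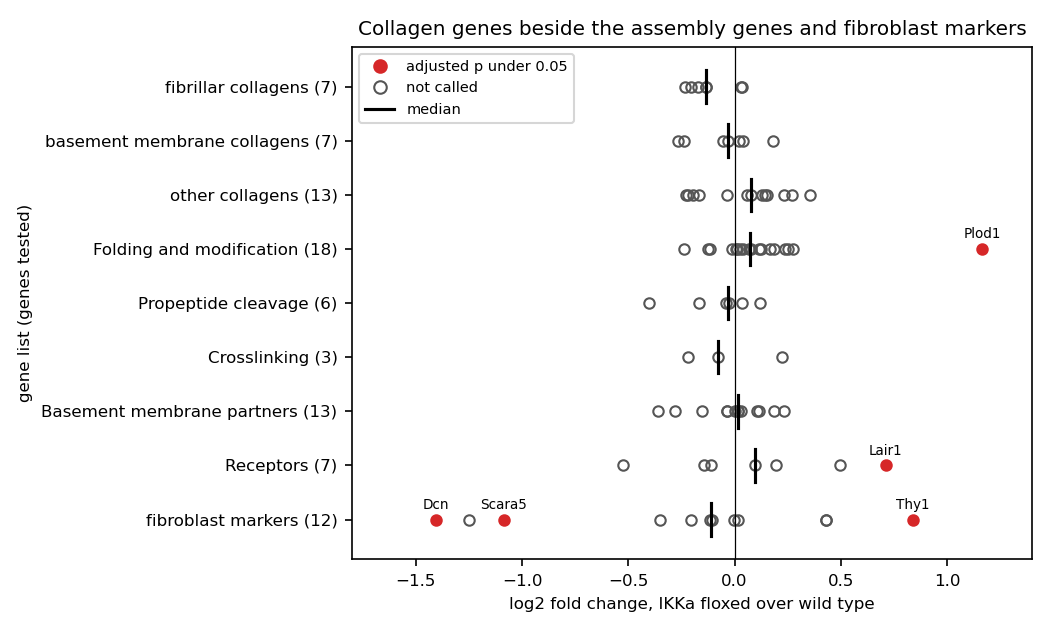
Log2 fold change (floxed over wild type) of each tested gene in the collagen classes, the assembly lists and the fibroblast markers, with filled red points for an adjusted p under 0.05, open points for genes not called and a bar for the median. Plod1 and Lair1 are the called assembly genes, and Dcn, Scara5 and Thy1 the called fibroblast markers.

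Markers of fibroblasts, the cells that make most fibrillar collagen, did not move as 1 group. Their summed intensity was 12540 to 13334 in wild type and 11039.6 to 11375 in floxed lungs. The fall of 1 marker, Dcn, given below, was about as large as that of the sum. Of 12 tested 1 was called higher and 2 lower, where 1.01% and 0.738% of all genes were. At an unadjusted p under 0.05 there were 7, against 14.3% of all genes. Those not called were Pi16 (-1.25) and Lum (-0.35) below 0, and Tcf21 and Fn1 (both 0.43) above. Pdgfra and Pdgfrb, receptors for platelet-derived growth factors, stood at -0.0039 and 0.02. Dcn, which encodes decorin, a proteoglycan that binds collagen fibrils, fell 2.65-fold, from 3227 and 2949 to 1169.5 and 1142 (-1.40 ± 0.12 SE, adjusted p = 0.00366). Its other probe set, with a mean intensity of 8.78, showed a log2 difference of 0.01, and with the mean of both the Dcn call ended (-0.70, adjusted p = 0.109). Scara5, a scavenger receptor of adventitial fibroblasts, fell 2.12-fold (-1.09 ± 0.15 SE, adjusted p = 0.0205). Its call ended with a pseudocount of 1 (adjusted p = 0.0633), with low genes kept in the test (0.0966) and with the mean of all probe sets (-0.58, adjusted p = 0.0593). Thy1, a surface antigen of fibroblasts and also of T cells, rose 1.79-fold (0.84 ± 0.14 SE, adjusted p = 0.0462). That call ended without wild type replicate 2 (adjusted p = 0.181) and without floxed replicate 1 (0.0974), with a pseudocount of 1 (0.101) and with low genes kept in the test (0.156). The collagen genes of the same arrays lay between -0.27 and 0.35.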

How the data were processed

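The deposited table gives 1 linear intensity per probe set, which the authors made with Affymetrix Expression Console, per the submitters' processing notes. The sources used here name neither version nor algorithm. The deposited intensities had a trimmed mean (2% cut at each end) of 150.001 on every array. Of 45101 probe sets, 34945 carried 1 gene symbol in the platform annotation, 932 several and 9160 none, and 64 array controls were left out. Intensities were transformed as log2(intensity + 16). Array medians differed by 0.0646 at most, under the limit of 0.1 for quantile normalization. A filter removed the 30% of genes with the lowest mean level, and 12735 were tested by eBayes in limma 3.58.1 (R 4.3.3), without covariates. Tests were two-sided at 0.05 after Benjamini-Hochberg adjustment over all of them. Prior degrees of freedom were 4.77. The number of arrays limits the precision, and an exact permutation test of 2 against 2 cannot pass the threshold. Alternatives are listed in the closing section.

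Members and lists were chosen with earlier results of these data known. The rule for named genes took called members, the 3 of highest mean in each class, genomic neighbours, called assembly genes and the 2 of highest mean per role. Other genes, such as Col13a1, Serpinh1, Nid2, Mrc2 and the fibroblast markers, were picked after their values were seen.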

Additional observations from a re-analysis of the deposited data

How the results depend on the processing

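No collagen gene was called in any of the 11 alternatives run: a pseudocount of 1 or 64, no filter on low genes, quantile normalization, the mean of all probe sets, an intensity trend with robust prior, the replicate block, and each array left out in turn. Over all genes, 222 calls became 105 with a pseudocount of 1, 360 with a pseudocount of 64, 69 with no filter, 387 with the trend and robust prior, and 146 to 248 with an array left out, the lowest without wild type replicate 2. Calls among assembly genes went from 2 to 1 with a pseudocount of 1, the mean of all probe sets or the replicate block, to 0 with no filter, and to 1 or 2 with an array left out. With the replicate number as a block, 189 genes were called. Same-numbered arrays did not deviate together over all genes tested (correlation -0.00058). That 1 correlation cannot show whether they share more than a number. In the fits with an array left out, the lone array of a group was assumed to vary like the others.

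The median of the basement membrane class ran from -0.17 without floxed replicate 2 to 0.090 without floxed replicate 1, that of the other collagens from 0.0041 to 0.048 with an array left out and 0.014 with no filter, and that of the fibrillar class from -0.21 to -0.056. Of 295 alternative values of single collagens, 271 kept their sign and 24 turned it, and 14 of 27 collagens turned under none of the alternatives. Quantile normalization turned Col1a2 to -0.043, Col4a1 to -0.035, Col4a6 to 0.028, P4hb to -0.081 and Pcolce to -0.039, and the mean of all probe sets turned Col4a1 to -0.071, Col4a4 to -0.058, Col12a1 to 0.037 and Nid1 to -0.030. With an array left out, the sign turned within the ranges of Col1a1 (-0.17 to 0.22), Col1a2 (-0.089 to 0.16), Col4a1 (-0.048 to 0.090), Col4a2 (-0.28 to 0.17), Col4a4 (-0.081 to 0.16), Col4a6 (-0.21 to 0.15), Col5a3 (-0.31 to 0.044), Col6a2 (-0.00043 to 0.26), Col7a1 (-0.072 to 0.36), Col8a1 (-0.087 to 0.21), Col8a2 (-0.40 to 0.012), Col12a1 (-0.12 to 0.048) and Col17a1 (-0.51 to 0.056). Among assembly genes it turned for Ppib (-0.0098 to 0.24), Pcolce2 (-0.24 to 0.19), Pcolce (-0.013 to 0.081), Nid1 (-0.020 to 0.078) and Ddr1 (-1.10 to 0.048). Why calls and signs changed between these fits was not tested. Low intensity limits the 15 untested collagens, for which the arrays give no usable comparison.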
